A study of Homo sapiens with 12 samples.

Results

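The baseline difference between Hep3B and Huh7, established lines from human liver cancer (hepatocellular carcinoma), was read from their control hairpin libraries alone. These are 6 of the 12 libraries of the series, 3 of Hep3B shNC and 3 of Huh7 shNC, each a line with the control hairpin shNC after 24 h of hypoxia. The remaining 6 libraries carry a hairpin against SLC6A8, the creatine transporter, and none of them was used. Both groups share the control hairpin and the hypoxia, and no normoxic library was compared, so each difference is one between hypoxic cells. Each group is a single cell line, and each line came in its own table, so a difference between lines and a difference between tables cannot be told apart. Whether the 3 libraries of a line came from separate cultures is not in the labels, and the p-values therefore rest on a spread between libraries that may be only technical.

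Hepatocellular carcinoma cells keep part of the program of the hepatocyte, the liver cell that makes most plasma proteins, and they often take up genes of fetal liver such as AFP and IGF2. Hep3B is known as a line without functional RB and with integrated hepatitis B virus sequence. Under low oxygen, the HIF transcription factors raise genes for glucose use, pH control and vessel growth.

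Library totals ran from 21065965 to 23237892 estimated counts in Hep3B and from 23156031 to 24565972 in Huh7, and levels are given as CPM, the count scaled to library size, scaled over the 6 libraries together. Pearson's r of log2 CPM, a description over 17283 genes, was 0.989 to 0.991 between libraries of a line and 0.740 to 0.746 between lines. Of the 17283 genes tested, 8116 (47.0%) passed an adjusted p under 0.05 in edgeR's quasi-likelihood test with a log2 difference of at least 1. Of these, 4043 (23.4% of all tested) were higher in Hep3B and 4073 (23.6%) were lower. These 2 conditions together are the meaning of higher, lower, rose, fell and called below. Counts of group members below are to be read beside these shares of all genes, 23.4% higher and 23.6% lower. By the adjusted p alone 14323 genes (82.9%) differed, 7033 (40.7%) higher and 7290 (42.2%) lower in Hep3B, and in 14526 (84.0%) the libraries of the lines did not overlap. The median absolute log2 difference was 0.93, and 714 genes differed by a log2 of 5 or more.

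**Figure D1:**
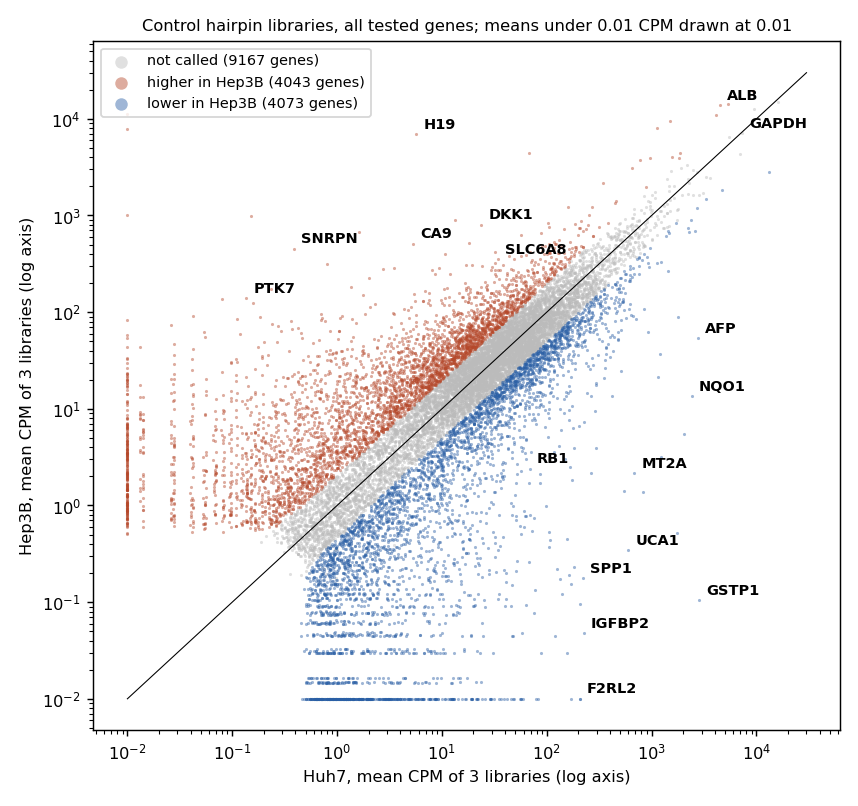
Mean CPM of the 3 Huh7 libraries (x axis, log scale) against the mean of the 3 Hep3B libraries (y axis, log scale), 1 point per tested gene, with the line of equal level. The 4043 genes higher in Hep3B lie above the line and the 4073 lower genes below it, and both clouds reach genes at about 0 in the other line.

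Sequence that genes share moved with direction. Among 995 genes with over 70% of their 31-base words also in transcripts of another gene (GENCODE v29), 38.3% were higher in Hep3B and 19.8% lower, against 25.6% and 24.8% of the 4383 genes with 1% or less. Read-through genes, whose transcripts join a pair of neighbouring listed genes, were higher in Hep3B in 65 of 104 and lower in 10. RAB4B-EGLN2 and EGLN2 summed to 94.4 CPM in Hep3B and 89.3 in Huh7, a log2 difference of 0.08 that did not pass (edgeR adjusted p = 0.149). GC content moved with direction too, since the median log2 difference went from -0.14 in the lowest of 10 equal classes of genes to 0.44 in the highest. How the reads of each table were assigned is not given in the sources used here. For single results, these features were looked at only through refits. These removed the GC and length trends or kept genes with under 10% of shared words. The part of the features in a result was not itself tested. Genes with over 40% of shared words are therefore named only as sums over the copies or with that share beside them.

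**Figure D2:**
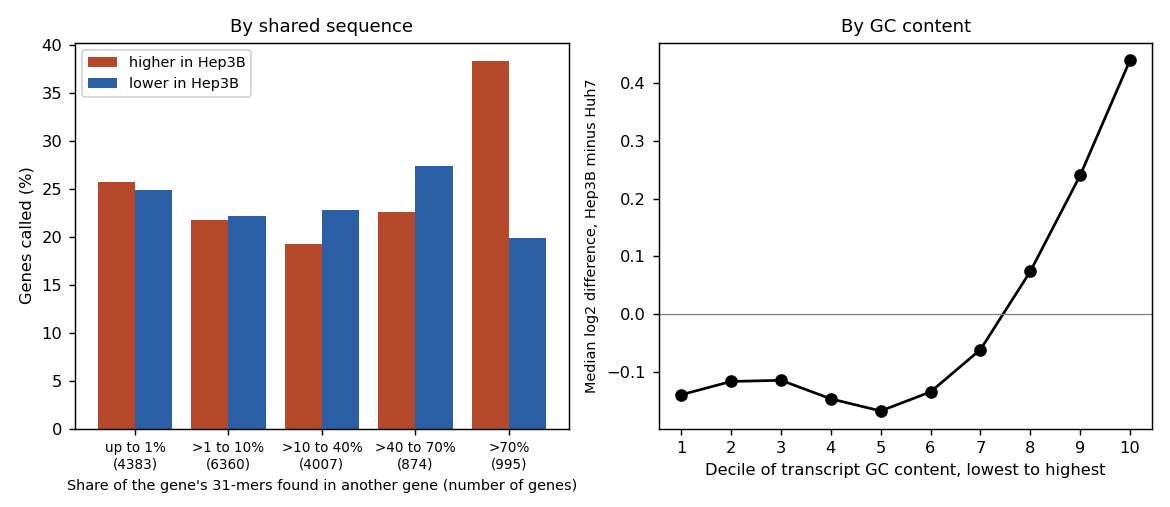
Left, share of genes called higher and lower (%) by the share of a gene's 31-base words found in another gene; right, median log2 difference by decile of transcript GC content. In the highest class the bars part, 38.3% against 19.8%, with higher genes ahead, and the GC line ends at 0.44.

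The tumour suppressor RB1 separated the lines. RB1 (chromosome 13), which restrains E2F factors, stood at 2.24, 2.21 and 2.73 CPM in Hep3B and at 68.1, 63.4 and 74.6 CPM in Huh7, a log2 difference of -4.80 ± 0.11 (SE, n = 3 per line). The lines did not overlap. Other genes often altered in liver cancer passed no call: TERT, CTNNB1, CDKN2A and AXIN1 had log2 differences of -0.68, -0.67, -0.37 and 0.33. For TERT it was -1.23, past the threshold, with the GC and length trends removed.

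Cell cycle regulators differed gene by gene, while few genes of the machinery they drive passed the log2 threshold. Of 33 RB, E2F and CDK genes, 8 were higher in Hep3B and 7 lower, with a median log2 difference of 0.14 (-0.02 over members with under 10% of shared words), beside 23.4% higher, 23.6% lower and a median of -0.03 over all genes tested. CDKN1A, the p21 inhibitor of cyclin-dependent kinases, stood at 10.2, 10.6 and 9.27 CPM in Hep3B and at 135, 140 and 125 CPM in Huh7, and fell by 3.72 on the log2 scale. All 3 Hep3B libraries lay below those of Huh7. CDKN1C, an imprinted CDK inhibitor, had 104 ± 10.4 CPM (SD) in Hep3B and 4.78 ± 1.38 in Huh7. CDKN2B, the inhibitor p15, went the other way with 4.01 and 57.2 CPM. MYCN, a MYC family factor, had 0.350 CPM in Hep3B and reached 34.0 CPM in Huh7. Of 40 DNA replication genes only 3 rose and 5 fell. Of 34 mitosis genes 5 rose and 1 fell: CENPF had the largest difference, 216 against 45.9 CPM, and KIF4A stood at 57.8 CPM in both lines. By edgeR's adjusted p alone 22 mitosis genes were higher in Hep3B and 7 lower, with a median of 0.32. Of the replication genes 16 were higher and 16 lower by that p, beside 40.7% higher and 42.2% lower over all genes. Members not called were thus not shown to be equal. Nuclear respiratory chain genes (5 higher and 5 lower of 72) and ribosomal proteins (1 higher and 3 lower of 70) had shares called well under those of all genes.

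**Figure D3:**
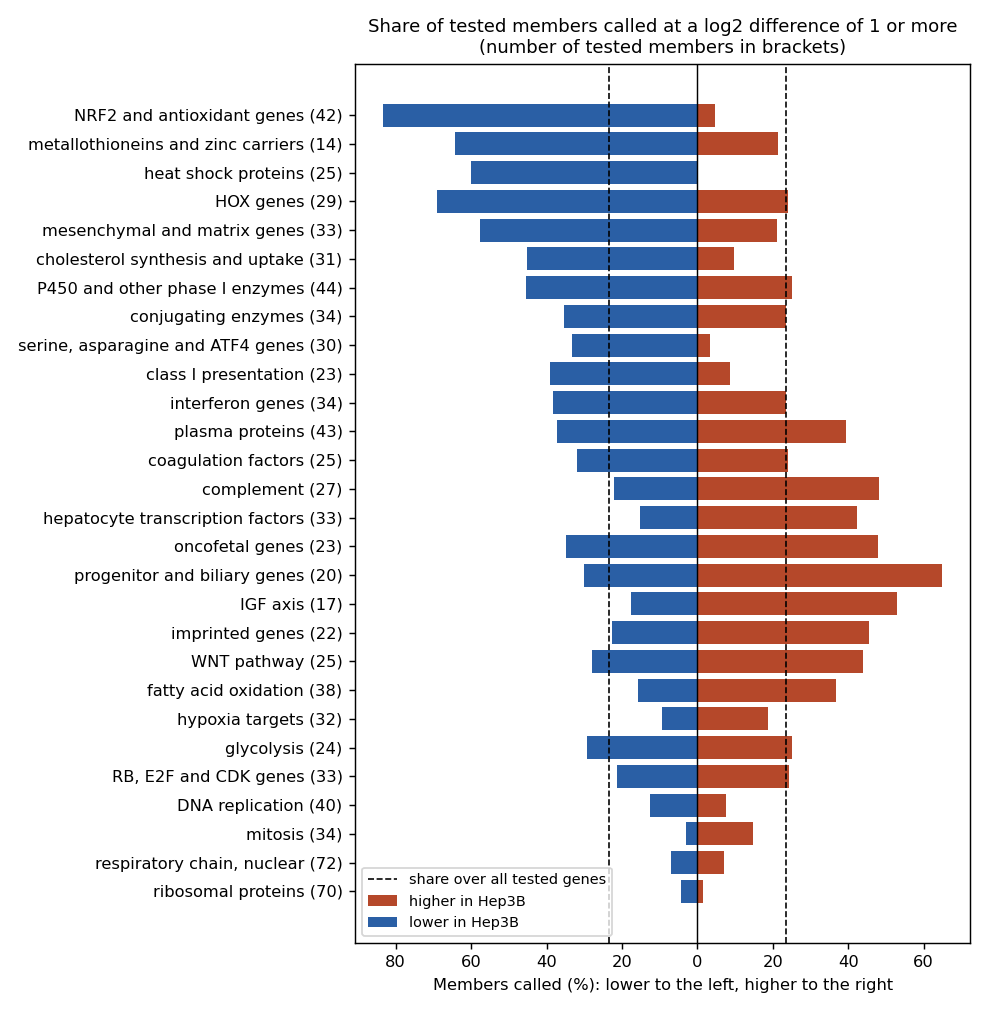
Share of the tested members of 28 gene groups called higher (right, %) or lower (left, %) in Hep3B, with the shares over all tested genes as dashed lines. The NRF2 group reaches furthest to the left and the progenitor and biliary group furthest to the right, and the lowest rows, replication to ribosomal proteins, stay inside both dashed lines.

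The liver program was present in both lines with a different product list. The hepatocyte factor CEBPA (261 and 270 CPM) passed no call, and HNF4A, a master regulator of hepatocyte genes, had a log2 difference of 0.69. Of 33 hepatocyte transcription factors 14 were higher in Hep3B and 5 lower, with a median of 0.76. ONECUT1, a factor of liver and bile duct development, was higher at 79.3 against 7.21 CPM. NR0B2, the repressor SHP, was higher at 42.7 against 2.41 CPM. NR1H4, the bile acid receptor FXR, was lower at 10.4 against 48.3 CPM, and so were CEBPB (6.98 against 79.3) and NR2F6 (5.16 against 102).

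Plasma proteins split almost evenly, with 17 of 43 (39.5%) higher in Hep3B and 16 (37.2%) lower. ALB (chromosome 4), serum albumin, stood at 13524, 13996 and 14237 CPM in Hep3B and at 4350, 4588 and 4416 CPM in Huh7, a log2 difference of 1.64 ± 0.05. AFP (chromosome 4), the fetal counterpart of albumin and its neighbour, stood at 49.8, 54.3 and 56.4 CPM in Hep3B and at 2658, 2879 and 2760 CPM in Huh7, a log2 difference of -5.69 ± 0.07. The pair thus differed in opposite directions with no overlap in either gene. TF, the iron carrier transferrin, had 9454 CPM in Hep3B and 1492 in Huh7, and CP, the copper oxidase ceruloplasmin, had 632 and 56.9. HAMP, the iron hormone hepcidin, had 0.595 and 60.1 CPM, and SERPINC1, antithrombin, 0.382 and 36.0. TTR, the thyroxine carrier, did not pass, at 42.3 and 53.8 CPM. The median of the group was -0.35, and it was 0.72 over the members with under 10% of shared words.

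In coagulation 6 of 25 genes (24.0%) were higher in Hep3B and 8 (32.0%) lower. FGB, a fibrinogen chain, fell by 5.02 on the log2 scale (36.7 against 1197 CPM). F7, which starts the extrinsic pathway, had 130 CPM in Hep3B and 6.55 in Huh7. F10, the next enzyme of that pathway, had 158 and 30.9 CPM. Complement leaned to Hep3B with 13 of 27 (48.1%) higher and 6 (22.2%) lower. C8G, a subunit of the pore complex, had 30.2 against 0.547 CPM.

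Fetal and imprinted genes differed in both directions. Of 23 oncofetal genes 11 were higher in Hep3B and 8 lower. H19 (chromosome 11), an imprinted fetal long non-coding RNA, stood at 6444, 6729 and 7586 CPM in Hep3B and at 4.98, 6.51 and 5.48 CPM in Huh7, a log2 difference of 10.24 ± 0.11. DLK1, a fetal liver surface protein, had 35.9 and 0.220 CPM, and SALL4, a fetal zinc finger factor, 36.6 and 1.96. Both were higher in Hep3B with H19. On the Huh7 side stood AFP, S100P (1.41 and 546 CPM), a calcium-binding protein, and CDH17 (0.261 and 68.3 CPM), a cadherin of the gut. IGF2BP1 and HMGA1, both common in fetal liver, did not pass, with log2 differences of -0.31 and -0.07. The median of the group, 0.34, is unstable. It was -0.34 when only members with under 10% of shared words were kept, and 0.65 to 0.70 without Hep3B replicate 3 or any 1 of the Huh7 libraries.

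Of 22 imprinted genes 10 were higher in Hep3B and 5 lower. SNRPN, from the Prader-Willi region of chromosome 15, had 454 ± 21.9 CPM in Hep3B and 0.388 ± 0.177 in Huh7. IGF2 and the read-through gene INS-IGF2 summed to 19308 CPM in Hep3B and 1133 in Huh7, a log2 difference of 4.09 ± 0.06. INS-IGF2 alone took 11203 CPM of the Hep3B sum and no read in Huh7, and it shares 99.1% of its words, so the split between the pair is uncertain. PHLDA2, an imprinted brake of placental growth, was lower in Hep3B at 7.71 against 76.7 CPM. Around IGF2, the IGF axis had 9 of 17 genes higher and 3 lower. IGFBP2, which binds IGFs in serum, held 3 counts in all over the 3 Hep3B libraries and 225 ± 22.9 CPM in Huh7.

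Progenitor and biliary genes leaned to Hep3B, with 13 of 20 higher and 6 lower. PROM1, the surface protein CD133, had 202 and 16.4 CPM, and CDH6, an embryonic cadherin, 60.3 and 0.448. SPP1 (chromosome 4), the secreted protein osteopontin, was on the other side with 0.179, 0.354 and 0 CPM in Hep3B and 224, 220 and 219 CPM in Huh7. CD44, the hyaluronan receptor, had 0 counts in all Hep3B libraries and 12.5 ± 0.876 CPM in Huh7. KRT19, a bile duct keratin, was lower in Hep3B but high in both, at 210 and 623 CPM.

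The epithelial group had 15 of 38 genes higher in Hep3B and 12 lower, and the mesenchymal and matrix group 7 of 33 higher and 19 lower with a median of -1.16, which was -0.43 on the log2 scale of the deposited TPM. COL1A2, a chain of type I collagen, had 3.10 CPM in Hep3B and 46.2 in Huh7. VIM, the filament protein vimentin, ran against the group with 383 and 56.7 CPM, and so did PRRX1, a mesenchymal homeobox factor, with 12.1 and 0.0271. In the epithelial group CLDN6, a fetal claudin, had 0.122 against 140 CPM, whereas ESRP1, a splicing regulator of epithelia, had 95.8 against 1.84 CPM and ITGB4, an integrin of hemidesmosomes, 38.1 against 0.920.

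HOX genes, which give cells their position along the body axis, differed in 27 of 29 measured members of the group (the non-coding HOTAIR included), 20 lower and 7 higher in Hep3B. The direction was uniform in the HOXB and HOXC clusters but mixed in the HOXA cluster. All 9 measured HOXC genes and all 4 measured HOXB genes were lower, for example HOXC10 (0.652 against 26.5 CPM), HOXC13 (0.119 against 17.7) and HOXB7 (0.0784 against 13.9). In the HOXA cluster, HOXA2, HOXA4, HOXA5, HOXA6, HOXA7 and HOXA10 were higher in Hep3B, while HOXA9, HOXA11 and HOXA13 were lower. HOXA6 had 4.93 CPM in Hep3B and 0.0140 in Huh7, and HOXA7 shares 65.3% of its words.

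**Figure D4:**
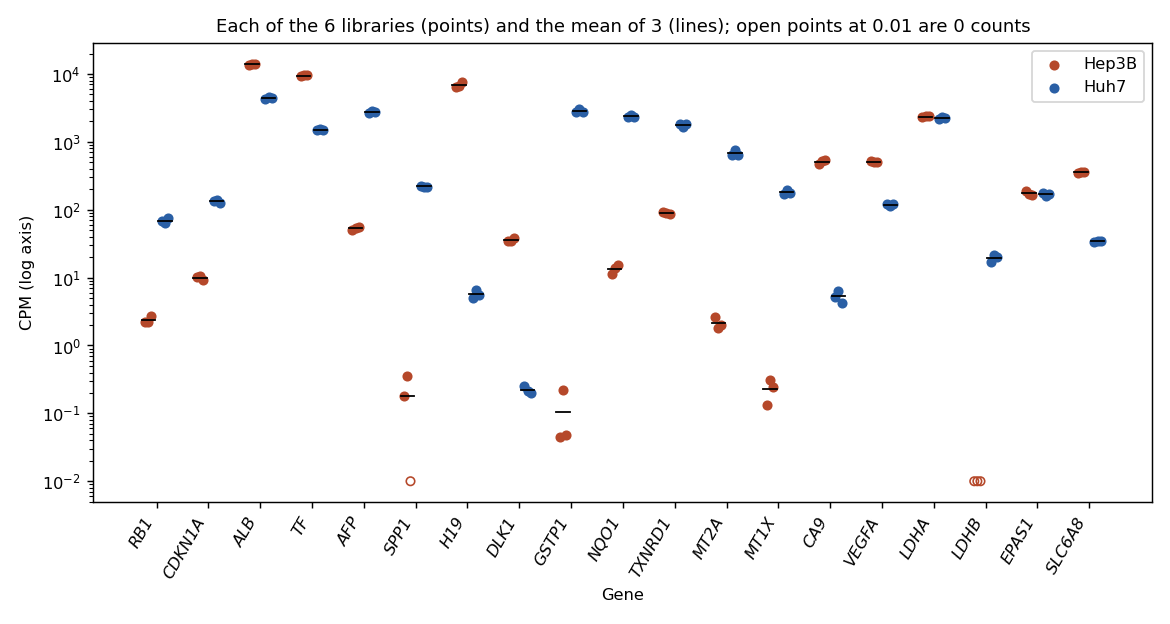
CPM (log axis) of 19 genes in each of the 6 libraries, Hep3B and Huh7 side by side, with the mean of each line; open points at 0.01 stand for 0 counts. The points of a line sit close together, and the lines are apart in every gene shown except LDHA and EPAS1.

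The largest one-sided group was the NRF2 group. NRF2 (NFE2L2) is a factor that raises enzymes of glutathione and thioredoxin metabolism, and KEAP1 keeps it low. Of 42 measured genes 35 were lower in Hep3B and 2 higher, with a median of -2.48. When only genes with under 10% of shared words were fitted, 19 members were lower and 2 higher. NQO1 (chromosome 16), a quinone reductase, stood at 11.2, 13.9 and 15.5 CPM in Hep3B and at 2325, 2519 and 2358 CPM in Huh7, a log2 difference of -7.47 ± 0.10. TXNRD1, thioredoxin reductase, stood at 91.2, 88.5 and 85.9 CPM in Hep3B and at 1821, 1666 and 1861 CPM in Huh7. Every library of Hep3B lay under every library of Huh7 in both genes. The glutathione enzyme subunit GCLM had 9.42 and 291 CPM, the cystine carrier SLC7A11 6.05 and 136, sulfiredoxin SRXN1 (86.1% shared words) 24.8 and 509 and heme oxygenase HMOX1 13.7 and 420. The aldo-keto reductases AKR1B1 (0.0947 and 208 CPM) and AKR1B10 (0.220 and 125 CPM) were under 1 CPM in Hep3B. AKR1C1 to AKR1C3, which share sequence, summed to 6.09 and 3763 CPM. NFE2L2 itself had 139 and 286 CPM and KEAP1 98.2 and 200, both lower in Hep3B at about the threshold. The exceptions were CAT, catalase (190 against 42.4 CPM), and GPX4, which reduces lipid peroxides (744 against 209 CPM), both higher in Hep3B. SOD2, the mitochondrial superoxide dismutase, stood at 527 and 516 CPM.

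A pair of core NRF2 targets is shown by the 250 bases before their start (RefSeq, GRCh38.p14), with matches to the antioxidant response element core TGACNNNGC in capitals, read on both strands. GCLM lies on the minus strand at chr1:93909431-93909680 and TXNRD1 on the plus strand at chr12:104215529-104215778, and each window held 1 match.
GCLM: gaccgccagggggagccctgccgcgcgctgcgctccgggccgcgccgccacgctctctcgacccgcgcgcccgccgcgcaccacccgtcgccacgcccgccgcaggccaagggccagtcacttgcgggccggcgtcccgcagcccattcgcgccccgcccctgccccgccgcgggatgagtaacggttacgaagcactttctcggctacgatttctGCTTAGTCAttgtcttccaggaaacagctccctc
TXNRD1: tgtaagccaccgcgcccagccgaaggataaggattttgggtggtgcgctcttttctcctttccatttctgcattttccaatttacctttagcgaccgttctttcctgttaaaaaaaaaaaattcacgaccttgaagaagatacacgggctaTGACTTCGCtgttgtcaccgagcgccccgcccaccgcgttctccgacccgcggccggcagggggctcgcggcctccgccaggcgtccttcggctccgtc
Such a match was found in 6 of the 29 promoters of the group that were in the table (20.7%) and in 1458 of 11991 promoters of tested genes (12.2%). A match is a description of the letters only.

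Conjugating and oxidising enzymes were lower in part, and their medians were less negative when only members with little shared sequence were kept. GSTP1 (chromosome 11), the pi class glutathione transferase, stood at 0.045, 0.221 and 0.049 CPM in Hep3B and at 2779, 3080 and 2709 CPM in Huh7, a log2 difference of -13.85 ± 0.14 and the lowest among tested genes whose mean log2 CPM reached 3. The Hep3B libraries held 1, 5 and 1 counts of it. Of 34 conjugating enzymes 12 (35.3%) were lower and 8 (23.5%) higher in Hep3B, beside 23.6% and 23.4% of all genes. The higher ones included SULT1C2, a sulfotransferase, at 91.1 against 1.11 CPM. The median of the group was -0.35, and it was -0.006 over the members with under 10% of shared words. Of 44 P450 and other phase I enzymes 20 were lower and 11 higher. Their median was -0.69, and it was -0.21 over the members with under 10% of shared words. CYP2S1 had 0.199 against 41.1 CPM, and CYP2B6, a drug-metabolising P450, 35.7 against 4.69. Among bile and drug transporters (10 higher and 12 lower of 28), ABCB11, the bile salt export pump, had 0.108 CPM in Hep3B and 20.4 in Huh7. The drug pump ABCG2 had 0.787 and 50.4 CPM.

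Metallothioneins, small proteins that bind zinc and copper, were at or near 0 in Hep3B. MT2A (chromosome 16) stood at 1.81 to 2.64 CPM in the Hep3B libraries and at 637, 753 and 646 CPM in Huh7, a log2 difference of -8.24 ± 0.11, with no overlap. MT1X had 0.229 and 180 CPM, and MT1E had 0 counts in Hep3B and 171 ± 12.5 CPM in Huh7, at least 3725-fold higher on a floor of 3 counts over the 3 libraries. The metallothionein genes summed to 2.41 CPM in Hep3B and 1131 in Huh7, a log2 difference of -8.82 ± 0.11. MTF1, the zinc-sensing factor that drives them, had 7.37 and 28.6 CPM, and the zinc exporter SLC30A1 10.4 and 84.9 CPM. The importers SLC39A5 (78.0 and 26.4 CPM) and SLC39A10 (59.5 and 18.0 CPM) were higher in Hep3B. Over the whole group of 14, zinc carriers included, 9 were lower and 3 higher.

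The windows of MT2A and MT1X are shown with matches to the metal response element core, searched as TGCACNC or TGCGCNC on both strands, in capitals. Both lie on the plus strand, MT2A at chr16:56608334-56608583 with 7 matches and MT1X at chr16:56682220-56682469 with 4.
MT2A: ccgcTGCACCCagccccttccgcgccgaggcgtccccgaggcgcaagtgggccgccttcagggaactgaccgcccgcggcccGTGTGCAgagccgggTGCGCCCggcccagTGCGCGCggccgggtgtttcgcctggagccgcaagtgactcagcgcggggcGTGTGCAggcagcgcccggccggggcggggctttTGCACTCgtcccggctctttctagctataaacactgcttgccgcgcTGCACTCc
MT1X: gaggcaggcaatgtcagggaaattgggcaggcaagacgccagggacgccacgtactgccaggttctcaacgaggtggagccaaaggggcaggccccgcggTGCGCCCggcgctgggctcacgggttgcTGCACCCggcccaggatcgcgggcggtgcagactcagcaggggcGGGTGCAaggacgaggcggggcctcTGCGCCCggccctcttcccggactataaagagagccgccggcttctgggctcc
The motif is short and common. It was found in 3 of 7 promoters of the group and in 3916 of 11991 of tested genes (32.7%).

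Heat shock genes, the chaperones that refold proteins, were lower in Hep3B in 15 of 25 and higher in none, with a median of -1.36, which was -2.36 over members with under 10% of shared words. HSPA1A and HSPA1B, near-identical copies, summed to 161 CPM in Hep3B and 1380 in Huh7. The small chaperone HSPB8 had 3.05 and 151 CPM, and HSPH1, a co-chaperone of HSP70, 86.2 and 565. HSF1, their main activator, had a log2 difference of -0.54, and DNAJB1 and HSPB1 were near equal, with -0.05 and 0.09. In the endoplasmic reticulum, HSPA5, its main chaperone, stood at 914 and 906 CPM, while XBP1, a factor of the unfolded protein response, had 132 and 533 CPM. Of 22 genes of that group 5 were higher and 2 lower.

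Under the shared hypoxia 6 of 32 hypoxia targets (18.8%) were higher in Hep3B, 3 (9.4%) lower and 23 not called. Both shares lay under the 23.4% and 23.6% of all genes. The median of 0.17 went from 0.10 to 0.31 across settings. By the adjusted p of edgeR alone 18 were higher and 8 lower, beside 40.7% and 42.2% of all genes. The members not called were thus not shown to be equal. CA9 (chromosome 9), a carbonic anhydrase that keeps the cytosol from acidifying, stood at 474, 521 and 541 CPM in Hep3B and at 5.19, 6.43 and 4.30 CPM in Huh7, a log2 difference of 6.58 ± 0.11. VEGFA, the vessel growth factor, stood at 516, 511 and 505 CPM in Hep3B and at 121, 113 and 123 CPM in Huh7. In both genes all Hep3B libraries were above all Huh7 libraries. PLIN2, a lipid droplet coat, had 2178 and 345 CPM, ERO1A, an oxidase of protein folding, 411 and 108, ANKRD37 17.5 and 1.48 and the collagen cross-linker LOX 127 and 52.5. The lower ones were SLC2A3, a glucose transporter (2.55 and 9.10 CPM), PFKFB3, which activates glycolysis (112 and 253), and STC2 (70.3 and 167). ADM, BNIP3, PDK1, KDM3A, P4HA1 and MXI1 passed no call, with log2 differences from -0.55 to 0.21, and of these ADM and MXI1 alone missed the adjusted p as well.

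The 250 bases before the start of CA9, on the plus strand at chr9:35673678-35673927 (RefSeq, GRCh38.p14), hold 1 match to the hypoxia response element core ACGTG, searched on both strands and given in capitals.
CA9: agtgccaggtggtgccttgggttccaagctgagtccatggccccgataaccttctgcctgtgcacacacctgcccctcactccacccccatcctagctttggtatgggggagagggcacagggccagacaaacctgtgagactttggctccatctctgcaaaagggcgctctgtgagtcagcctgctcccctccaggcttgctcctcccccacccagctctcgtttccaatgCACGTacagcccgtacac
The same motif was found in 12 of 25 promoters of the hypoxia group (48.0%) and in 2748 of 11991 promoters of tested genes (22.9%).

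Of the HIF genes, HIF1A had 104 CPM in Hep3B and 233 in Huh7, a log2 difference of -1.16 ± 0.07. EPAS1, which encodes HIF2 alpha, stood at 186, 169 and 166 CPM in Hep3B and at 179, 157 and 170 CPM in Huh7, with overlap and a log2 difference of 0.04. Their partner ARNT was higher in Hep3B, at 98.8 and 38.6 CPM, and HIF3A, a variant subunit, had 5.47 and 0.0937 CPM. The oxygen sensors EGLN1 and EGLN3 and the HIF ligase subunit VHL passed no call, with log2 differences of 0.11, 0.88 and 0.08. For EGLN3 the value was 1.03, past the threshold, with the GC and length trends removed. EGLN2 alone had -0.63, but its sum with RAB4B-EGLN2, given above, was near equal.

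Of 24 glycolysis genes 6 were higher in Hep3B and 7 (29.2%) lower, shares near the 23.4% and 23.6% of all genes. LDHA, the hypoxic lactate dehydrogenase chain, stood at 2305, 2381 and 2399 CPM in Hep3B and at 2204, 2322 and 2212 CPM in Huh7 and did not pass. LDHB, the other chain, had 0 counts in all Hep3B libraries and 16.8, 21.5 and 20.1 CPM in Huh7, at least 425-fold higher on the floor of 3 counts. Hexokinases were split as well. HK2 had 356 and 86.9 CPM and HK1 0.168 and 11.3. PKLR, the liver pyruvate kinase, had 5.52 and 0.136 CPM, and PFKL, the liver phosphofructokinase, 336 and 96.2. GAPDH stood at 7055 and 7247 CPM. In gluconeogenesis PCK1, the cytosolic carboxykinase, had 0.0296 and 5.39 CPM and its mitochondrial relative PCK2 a log2 difference of 0.16.

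SLC6A8 (chromosome X), which the hairpins of the unused libraries target, was among the genes higher in Hep3B. It stood at 347, 362 and 354 CPM in Hep3B and at 33.6, 34.8 and 34.6 CPM in Huh7, a log2 difference of 3.36 ± 0.05. CKM, the muscle creatine kinase, had 14.3 and 0.790 CPM. CKB, the brain-type kinase, was close, at 204 and 248 CPM. GAMT, which makes creatine, was higher in Hep3B at 76.9 and 35.5 CPM, but its log2 difference went from 1.11 to 0.85 once the GC and length trends were removed. GATM, the step before it, passed no call (3.46 and 6.69 CPM). CKMT1A and CKMT1B, the mitochondrial kinase copies, summed to 0.133 and 3.74 CPM.

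Amino acid supply leaned to Huh7. Of 30 serine, asparagine and ATF4 genes 10 were lower in Hep3B and 1 higher, with a median of -0.58. SLC3A2, the heavy chain of amino acid exchangers, had 91.9 and 663 CPM, and its partner SLC7A5 49.0 and 216. ATF4, the factor of the stress response, had a log2 difference of -0.64 and DDIT3, its target CHOP, of 0.01. The exception was NUPR1, a stress-induced chromatin protein, with 284 and 3.49 CPM. Among liver amino acid enzymes (14 higher and 15 lower of 51), AGXT, which clears glyoxylate, had 63.8 and 1.04 CPM, and KYNU, of tryptophan breakdown, 9.78 and 165.

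Cholesterol genes were lower in Hep3B in 14 of 31 and higher in 3. HMGCS1, an early enzyme of the pathway, had 108 and 847 CPM, and INSIG1, its sterol-regulated brake, 14.6 and 87.8. TM7SF2, a sterol reductase, ran the other way with 113 and 5.12 CPM, and SREBF2 passed no call. Fatty acid oxidation leaned to Hep3B with 14 of 38 genes (36.8%) higher and 6 (15.8%) lower. PPARGC1A, a coactivator of mitochondrial genes, had 21.0 and 1.29 CPM, and PPARG, a lipid-storing receptor, 130 and 16.7. In fatty acid synthesis (11 higher and 10 lower of 42), MLXIPL, the glucose sensor ChREBP, had 92.3 and 5.61 CPM, and FASN was near equal at 230 and 216. ANGPTL8, a liver inhibitor of lipoprotein lipase, had 74.1 ± 7.03 CPM in Hep3B and 2 counts in all in Huh7.

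Growth signals differed in their ligands and receptors. In the WNT group (11 higher and 7 lower of 25), DKK1, a secreted WNT antagonist, had 806 CPM in Hep3B and 23.8 in Huh7. In the FGF axis (7 higher and 7 lower of 20), FGFR2 had 68.4 and 0.426 CPM, FGFR3 397 and 101 and the endocrine ligand FGF19 17.8 and 292. KLB, the coreceptor of FGF19, did not pass, at 104 and 89.4 CPM. Among receptor tyrosine kinases and their ligands (14 higher and 13 lower of 37), EGF had 0 counts in Hep3B and 59.9 ± 3.27 CPM in Huh7. EREG, another ligand of the same receptor, had 37.1 and 0.836 CPM, and the receptor EGFR 153 and 135. GFRA1, the GDNF receptor, had 54.7 and 0.0551 CPM. INHBB and INHBE, activin subunits, were higher in Hep3B (112 and 2.07, and 303 and 23.8 CPM), while FST, which binds activin, was lower (2.13 and 85.3). CCN2, a target of YAP, had 52.5 and 476 CPM.

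Immune genes gave no single direction. Of 34 interferon genes 8 (23.5%) were higher in Hep3B and 13 (38.2%) lower, the former near the 23.4% of all genes. MX2, an antiviral GTPase, had 2 counts in Hep3B and 155 ± 5.44 CPM in Huh7, OAS1 0.985 and 97.8 CPM, and LGALS3BP 396 and 10.7. PSMB8, a subunit of the immunoproteasome, had 0.165 and 8.33 CPM. CD74, the invariant chain of class II, had 81.5 and 0.764 CPM. Of the chemokine group (5 higher and 9 lower of 32), CXCL12 had 43.9 and 0.177 CPM, CXCL8 46.7 and 388, and CCL20 651 and 591 with no call.

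Of 23 long non-coding RNAs on a list for liver cancer 5 (21.7%) were higher and 9 (39.1%) lower in Hep3B, close to the shares of all 1209 tested long non-coding RNAs, 22.8% and 36.7%. UCA1 had 0.346 CPM in Hep3B and 595 ± 26.0 in Huh7. Among them are host transcripts of microRNAs, whose mature products were not measured in these libraries. MIR122HG, the host of the liver microRNA miR-122, had 0.0745 and 8.14 CPM, MIR22HG 10.8 and 173, and MIR17HG, the host of a cluster with miR-17, 9.38 and 2.74. A mature sequence of each host (RefSeq, GRCh38.p14) is given with the seed, bases 2 to 8, in capitals. The seeds of the sequences shown are unlike, and other products of the hosts are not given.
hsa-miR-122-5p: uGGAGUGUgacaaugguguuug
hsa-miR-22-3p: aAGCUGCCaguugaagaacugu
hsa-miR-17-5p: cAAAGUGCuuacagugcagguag
On the scale of the deposited TPM the difference of MIR17HG was 0.97, under the threshold.

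A count of genes by level asked which were present in a single line, with 5 CPM or more in each library of it and 0.1 CPM or less in each library of the other. There were 91 such genes in Hep3B, 49 of them with 0 counts in Huh7, and 131 in Huh7, 76 of them with 0 counts in Hep3B. Of the Hep3B set 53 and of the Huh7 set 97 were annotated as protein coding, and 14 and 6 lay on chromosome X. Among all 17283 tested genes 13744 were protein coding, and of the 15396 with a position 481 lay on chromosome X. Some genes of both sets had no annotated type or position, and these entered neither number. With genes of under 10% shared words alone the sets held 43 and 94. The highest of the Hep3B set were INS-IGF2 (11203 CPM, 99.1% shared words) and entries without a symbol or position, at 7873 and 1019 CPM. These had 0 counts in Huh7, and the part of read assignment in them was not tested. Further down on the Hep3B side were PLD5 (61.9 CPM), the ubiquitin ligase PJA1 (at least 559.5-fold higher) and the zinc finger gene ZNF711 (at least 534-fold). CER1, a secreted antagonist of nodal and BMP signals (20.2 CPM), was there too. On the Huh7 side were F2RL2, a thrombin receptor, at 203, 204 and 212 CPM against 0 counts, the piRNA pathway gene GTSF1 (79.0 CPM), the secreted protease inhibitor SLPI (74.8 CPM), the tetraspanin CD9 (48.4 CPM) and the co-chaperone gene DNAJC15 (39.3 CPM). F2RL2 was at least 4503.8-fold higher in Huh7. PTK7, a WNT pathway receptor, was just outside the set for Hep3B, with 139 ± 2.42 CPM against 0.136 ± 0.0571.

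Along the chromosomes, in windows of 25 neighbouring tested genes, 488 of 14844 windows had a median of 1 or more and 553 a median of -1 or less. Chromosome 13 had the highest share of lower genes, 39.0% of 254, and chromosome 4 the highest share of higher genes, 30.0% of 577. The window around RB1, from CPB2-AS1 to DLEU2 (GRCh38.p14, chromosome 13, 46052848 to 50125541), had 22 of 25 genes lower and none higher, with a median of -2.43. Its members include LCP1, an actin bundler (3.61 and 117 CPM), ITM2B (94.1 and 630 CPM) and DLEU2 (1.89 and 38.6 CPM). The lowest window lay on chromosome 12 (8940361 to 10674052, M6PR to STYK1, median -3.32) over a cluster of lectin-like receptor genes of natural killer cells. There KLRC1 to KLRC4, KLRK1 and their read-through summed to 0.0296 CPM in Hep3B and 102 in Huh7. The next, also on chromosome 12 (53665170 to 55369279, ATP5MC2 to OR6C74, median -2.71), covers the HOXC cluster.

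The highest window lay on chromosome X. From APEX2 to NALF2 (55000363 to 69532508) the median was 4.42 with 18 of 25 genes higher and 4 lower. MSN, the membrane linker moesin, had 71.6, 65.1 and 64.5 CPM in Hep3B and 0.380, 0.378 and 0.355 CPM in Huh7, and EFNB1, an ephrin, 17.6 and 0.0403. Elsewhere on the chromosome windows with medians of -1 or less were seen too, and over all 481 tested genes of chromosome X the median was -0.31. SLC6A8 sits in another high window of that chromosome (CD99L2 to PLXNB3, 150766336 to 153779341, median 2.30, 15 higher and 4 lower). That window holds the copied MAGEA genes, and its median was 0.15 over the 13 members with under 10% of shared words.

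**Figure D5:**
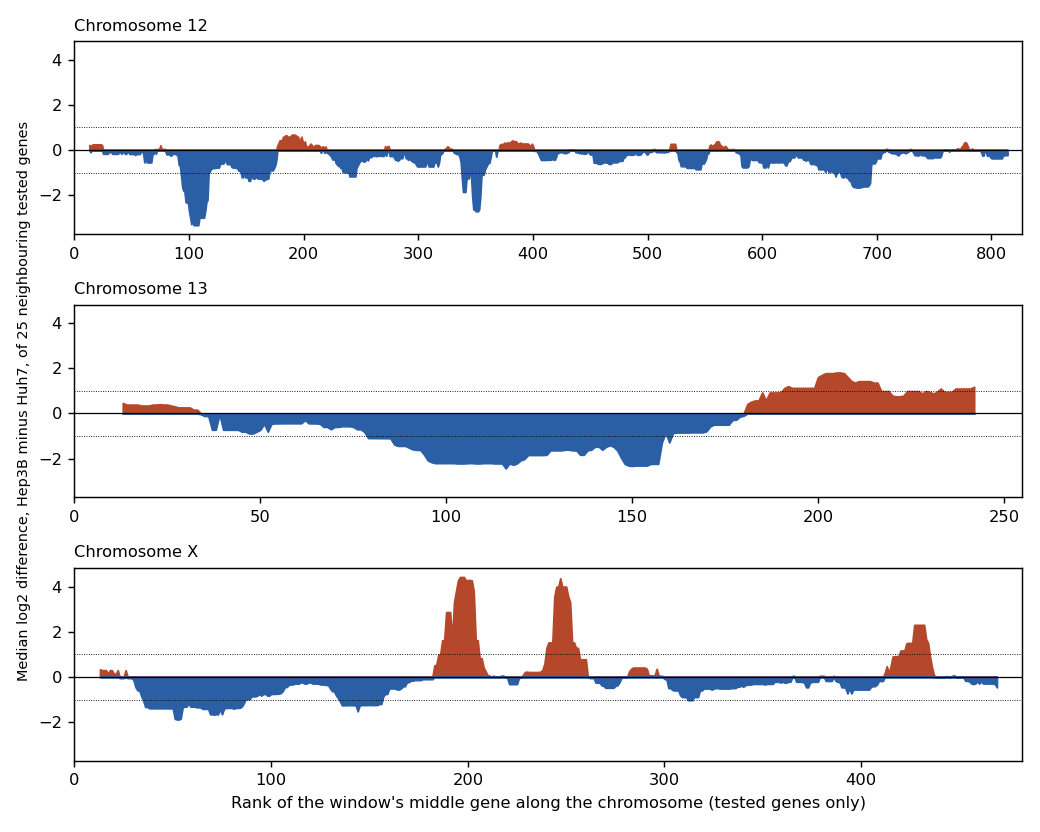
Median log2 difference of 25 neighbouring tested genes (y axis) by rank of the window's middle gene along chromosomes 12, 13 and X (x axis); dotted lines mark 1 and -1. Chromosome 13 shows a long stretch below 0 followed by one above 0, chromosome 12 a pair of narrow troughs down to -3.32, and chromosome X a pair of peaks of over 4.

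Markers of other cell types were mostly low in both lines, and in such bulk libraries fewer cells of a type and less RNA per cell cannot be told apart. Of 13 endothelial markers 6 were tested, and the summed level was 41.5 to 46.5 CPM in Hep3B and 58.7 to 69.5 in Huh7, mostly from EGFL7. CDH5, KDR and TEK did not pass the filter on low counts. Of 16 leukocyte markers 8 were tested, with sums of 411 to 415 and 371 to 390 CPM, nearly all from LYZ (338 and 296 CPM) and CD68, which shares 83.8% of its words. S100A9 had 0 counts in Hep3B and 28.6 CPM in Huh7. Stellate and fibroblast markers (8 of 13 tested) summed to 24.2 to 27.1 and 68.3 to 72.5 CPM, with COL1A1 and COL1A2 lower and PDGFRA and PDGFRB higher in Hep3B. Intestinal markers (7 of 15 tested) summed to 453 to 465 and 274 to 286 CPM, chiefly VIL1 (44.0% shared words), and neuronal markers (7 of 14 tested) to 158 to 165 and 89.9 to 99.2 CPM. By genes rather than sums, 4 of the 7 intestinal markers were lower in Hep3B and 1, VIL1, higher, and 3 of the 7 neuronal markers were lower and 2 higher. The hepatocyte markers ALB, APOA2, TF and HNF4A were present in both lines. AFP and FGB, from the same markers, were present in both as well but lower in Hep3B, while ALB and TF were higher.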

How the data were processed

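RNA of the hypoxic cells was extracted with the RNAfast-2000 kit and made into libraries with a SMARTer mRNA-Seq kit, per the labels' protocols. The authors deposited 1 table per line with estimated counts and TPM for 62703 genes, and the submitters' processing notes name GRCh38.p14. No source used here gives the aligner, counter, gene annotation or strandedness. The deposited estimated counts were rounded, the tables joined by gene ID, and genes with low counts removed (filterByExpr). TMM scaling and edgeR's quasi-likelihood test (edgeR 4.0.16, R 4.3.3, prior count of 2) gave p-values adjusted by Benjamini-Hochberg over all 17283 genes. SEs were derived from the fold change and the F statistic and are approximate. The deposited TPM values served 1 alternative, limma 3.58.1 on log2(TPM + 1), and DESeq2 1.42.0 served another. The members and the 57 gene lists were chosen with earlier results of these data known. Named genes were drawn, not in full, from these: per list and direction, up to 4 called members of largest difference, near-equal members, the 12 largest differences per direction overall (mean log2 CPM at least 3), the most abundant genes, the 12 highest line-restricted genes per line, members of the extreme windows, and every member of 3 short lists. A few others, such as NQO1, GCLM, TXNRD1, SRXN1, CD9 and LCP1, were chosen after their values were seen. Sequences and positions are from RefSeq (GRCh38.p14, positions for 40050 genes). Counts of the same design were simulated for 16851 genes. By adjusted p without the log2 threshold, the test recovered 80.8% of 99 genes changed 2-fold and 96.8% of 94 changed 4-fold. A 2-fold change lies on that threshold, so these shares do not give the recovery of calls. The simulation left 16658 genes unchanged, whereas 82.9% of genes differed by adjusted p in the data. It therefore does not show how scaling and test behave under so broad a difference. Some genes are not reported here.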

Additional observations from a re-analysis of the deposited data

How the results depend on the processing

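Of 10654 recomputed values of the named genes, 10561 stayed on the same side of the threshold in the same direction, 86 lost the call, 7 gained it and 0 reversed. Many of these genes were chosen for large differences in the same data, so this stability was partly set by the choice. A gene left out of a refit gave no value for it. The refit on under 10% of shared words thus could not move genes above that share. The deposited TPM scale moved 54 of these calls and removal of the GC and length trends moved 16. Fitting only genes with under 10% of shared 31-base words, chosen after seeing the data, left 9150 genes by adjusted p (4483 higher, 4667 lower) and 4989 past the fold (2474 and 2515), since fewer genes were tested. It left 43 genes restricted to Hep3B. Requiring 1 CPM in the line that has the gene gave 250 and 415 restricted genes in Hep3B and Huh7, 20 CPM gave 23 and 38, and 0 counts in the other line gave 49 and 76. Windows of 50 genes gave 0.631% with a median of 1 or more and 2.159% with -1 or less, beside 3.288% and 3.725% for 25 genes.

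Leaving out 1 library at a time gave 14128 to 14445 genes by adjusted p (6898 to 7118 higher, 7150 to 7386 lower) and 8382 to 8569 past the fold (4125 to 4211 higher, 4171 to 4372 lower). It gave 93 to 110 and 131 to 152 restricted genes, and 3.39 to 3.773% and 3.634 to 4.114% of windows. The replicate numbers did not pair the libraries, with correlations of deviations of 0.0566, 0.0304 and -0.0302 for equal numbers. With the replicate block 14182 genes differed by adjusted p (6980 higher, 7202 lower) and 8123 past the fold (4042 and 4081).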

Other observations

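Copies and read-through loci not described above had these summed levels. MT-ND4 with its nuclear copy MTND4P12 had 15264 CPM in Hep3B and 5365 in Huh7, a log2 difference of 1.51, while MT-CO1 with MTCO1P12 had 19461 and 16264, a log2 difference of 0.26. APOC2 with its read-through gene had 168 and 159 CPM, which did not pass (edgeR adjusted p = 0.280). ORM1 with ORM2, an acute-phase pair, had 190 and 416 CPM, and C4A with C4B 19.5 and 7.20. MAGEA3 with MAGEA6 had 16.1 and 0.110 CPM, and MAGED4 with MAGED4B 82.5 and 0.0561.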
